A study of Callithrix jacchus with 54 samples.

Results

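Marmoset embryonic stem cells (cjESCs) were profiled by RNA-seq in the media PESFA and DK20FA, and the genes of the primitive streak and of stromal, feeder-like cells were compared between them. The members were the 4 libraries labelled as cjESCs in PESFA or in DK20FA, 2 replicates each, of the 54 libraries of the series. All 4 came from the CMES40 line with a tdTomato reporter at BLIMP1 and an eGFP reporter at NANOS3, were grown on irradiated mouse embryonic fibroblasts, and were sorted for the surface antigen TRA-1-60 to leave those feeders behind. DK20FA consists of Knockout DMEM with KSR, bFGF and activin A, and its cells carried the transgenes rtTA, tetO-BLIMP1, SOX17-GR and DD-TFAP2C. That line was grown from colonies picked after transfection of the reporter line, which had itself been grown from picked colonies. PESFA consists of a commercial primate ESC medium with bFGF and activin A, and its cells were labelled wild type, without these transgenes. Medium and line therefore differ together and cannot be told apart. Pre-treated cells, also 2 libraries sorted for TRA-1-60, serve as a reference: they were PESFA cells kept for a day on fibronectin, without feeders, with activin A and IM12, an inhibitor of GSK3. The remaining 48 libraries, from 24 later conditions of both lines, are not compared here, but they enter the fit, where they supply most of the estimate of the spread, and the filter on low values, and they give the range of a gene.

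The primitive streak is the site where epiblast cells of the gastrulating embryo leave the epithelium and become mesoderm and endoderm. NODAL, WNT and BMP signals induce it, and its cells switch on T-box and homeobox factors such as TBXT, EOMES and MIXL1. Primed pluripotent stem cells can express these genes at some level in culture. Stromal cells such as fibroblasts make fibrillar collagens and matrix glycoproteins, and those of the trunk and limbs keep a code of HOX genes from the position at which they formed. In bulk libraries such as these, fewer cells of a type and less RNA per cell cannot be told apart.

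Expression was deposited as TPM (transcripts scaled by length to a fixed total per library), which holds no read total. Depth was therefore unknown, and from 11992 to 12219 genes were above 0 in the 4 libraries. The TPM of the 14812 genes in the table summed to 835298 and 836623 in DK20FA and to 804627 and 790300 in PESFA. Over the series these sums ranged from 790300 to 839203, so PESFA replicate 2 had the lowest, and the remainder belongs to transcripts not in the table. Differences are given as log2(TPM + 1) in PESFA minus that in DK20FA, on which low genes change by less than their TPM do, with the standard error (SE) and the Benjamini-Hochberg adjusted p of a limma fit over all 54 libraries. A gene was called at an adjusted p under 0.05, and a differentially expressed gene (DEG) also differed by more than 4-fold at an adjusted p under 0.01 with a mean log2 value above 1.5. Genes were tested if they reached a log2 value of 1.5 in any library, which 116 genes, 14 of the higher DEGs among them, did only in PESFA or pre-treated libraries. Such genes had to differ, and where they are named below they are described as such. The labels name the cells of a group as replicates and the study calls them biological duplicates.

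The label of pluripotent cells held in all 4 libraries. Of 11 pluripotency markers, 10 were in the table and passed the filter on low values, 1 of them was called higher in PESFA and 0 lower. POU5F1, the core pluripotency factor, was at 3082 and 2868 TPM in DK20FA and at 3429 and 3297 TPM in PESFA. The log2 difference of POU5F1 was 0.18, those of NANOG and SOX2 were -0.02 and 0.25, and none of the 3 passed the test. PRDM14, a repressor of differentiation, was the called member, with 202 and 130 TPM in DK20FA and 313 and 266 TPM in PESFA, and its call was lost without DK20FA replicate 2 and without PESFA replicate 1. Replicates correlated more closely with each other (Pearson's r across genes of 0.986 in DK20FA and 0.983 in PESFA) than libraries of different media did, at 0.947 to 0.957.

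Against this shared core, the media differed at 162 DEGs higher in PESFA, 1.45% of the 11197 genes tested, and at 66 DEGs lower in PESFA, 0.589% of them. At an adjusted p under 0.05, 1292 genes (11.5%) were higher and 1707 (15.2%) lower in PESFA, so 43.1% of the calls were higher. After median-ratio scaling of the libraries that share was 57.3%, so the balance of small differences depended on the scaling. The lower calls numbered 829 without PESFA replicate 2 and 1053 without DK20FA replicate 1. A fit of the 4 libraries alone, with few residual degrees of freedom, called 45 genes higher and 14 lower and no DEG, although 2877 genes had an unadjusted p under 0.05, and a fit of the 6 libraries sorted for TRA-1-60 called 330 genes higher, 289 lower and 1 DEG, MIXL1. An exact permutation test of 1 gene, with 2 libraries on each side, could not go below p = 0.333. Of the higher DEGs, 41 were under 1 TPM in both DK20FA libraries and 23 were over 100 TPM in both PESFA libraries. Of the lower DEGs, 7 were under 1 TPM in both PESFA libraries and 13 were over 100 TPM in both DK20FA libraries.

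**Figure D1:**
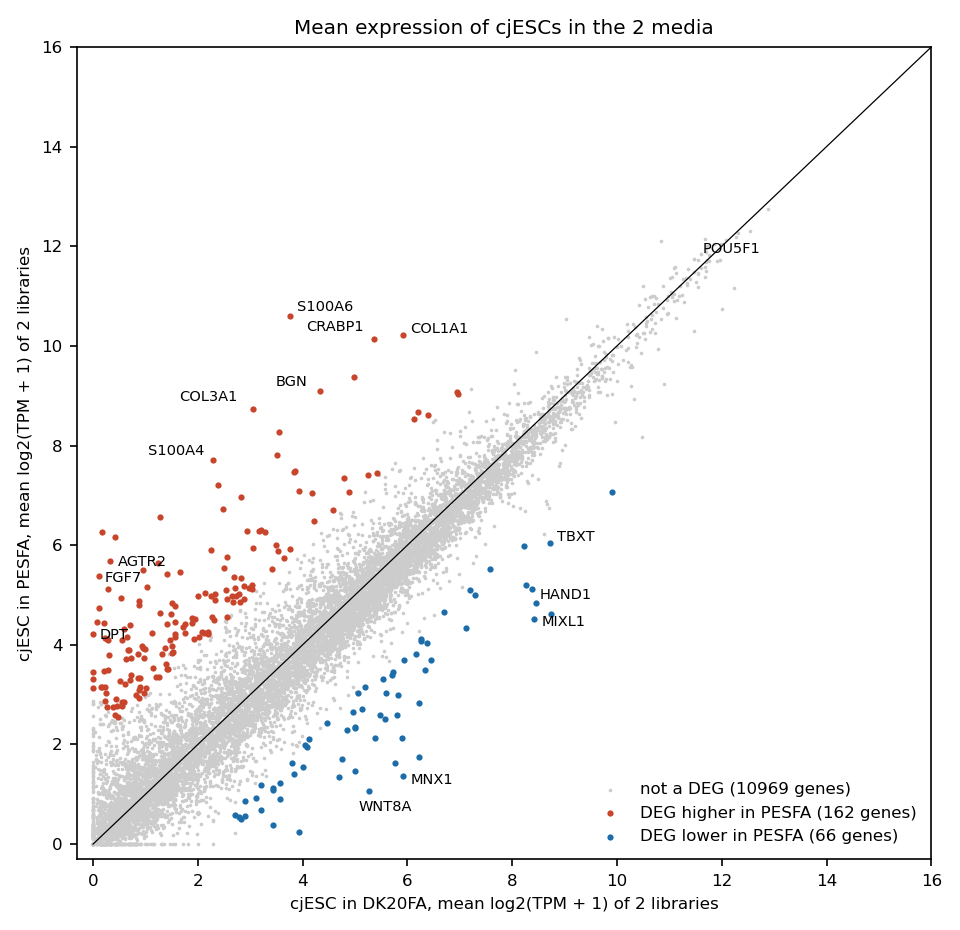
Each point is 1 of 11197 genes, with its mean log2(TPM + 1) over 2 libraries in DK20FA on the x axis and in PESFA on the y axis, the 162 DEGs higher in PESFA in red and the 66 lower in blue. Collagen and S100 genes lie far above the diagonal, MIXL1, TBXT and HAND1 far below it, and POU5F1 on it.

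Transcription factors of the primitive streak and early mesendoderm were lower in PESFA. All 22 of the listed factors in the table were tested, of which 12 fell and 1 rose. The background over all genes tested was 15.2% lower and 11.5% higher, and it applies to the counts of each list below. Their median log2 difference was -1.61, beside -0.08 over all genes tested. MIXL1, a homeobox factor of the streak, was at 353 and 326 TPM in DK20FA and at 20.1 and 24.2 TPM in PESFA, a log2 difference of -3.88 (SE 0.67, adjusted p = 3.32e-05). MNX1, a homeobox factor best known from the notochord, pancreas and motor neurons, was at 60.0 and 58.8 TPM in DK20FA and at 2.91 and 0.69 TPM in PESFA, a difference of -4.55 (SE 0.43, adjusted p = 2.88e-10). In neither gene did the media come near to overlapping, and MNX1 had the largest decrease among the DEGs with a gene name.

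The same held for the other leading members. SP5, a direct target of WNT signalling, was at 41.3 and 83.4 TPM in DK20FA against 4.22 and 2.63 in PESFA (log2 difference -3.78, SE 0.48). EVX1, a homeobox gene of the posterior streak, was at 24.7 and 25.4 TPM against 1.60 and 1.47 (-3.36, SE 0.32). HAND1, a factor of extraembryonic and lateral mesoderm, was at 259 and 426 TPM against 46.6 and 24.3 (-3.26, SE 0.32). The genes below this rank were chosen for naming after their values were seen, and they too were DEGs: GATA6, TBXT, EOMES, CDX1 and CDX2. TBXT, the T-box factor that defines the streak, was at 435 and 404 TPM in DK20FA and at 79.9 and 52.7 in PESFA, so it stayed clearly above 0 in PESFA.

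Within the list the decrease was uneven. GSC, a gene of the anterior streak, was at 4.05 and 4.23 TPM in DK20FA and at 3.65 and 19.2 in PESFA, FOXA2 at 1.23 and 0 against 4.03 and 0.93, and OTX2 was listed at 0 in both DK20FA libraries and at 0.22 and 0.45 in PESFA, and none of these 3, named after their values were seen, passed the test. LHX1, a LIM-homeobox gene of the organizer, was the member called higher, at 3.82 and 6.85 TPM against 16.5 and 17.7, with an adjusted p of 0.0466, and its call was lost in 11 of the 15 alternatives. The count of lower factors was between 11 and 13 when each replicate was left out in turn.

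WNT ligands divided by member. WNT8A, WNT3A, WNT3 and WNT5B fell, which is 4 of the 10 ligands tested, 3 rose, and another 3 ligands in the table were too low to be tested. WNT8A, a ligand of the streak and posterior mesoderm, was at 36.2 and 38.5 TPM in DK20FA and at 0.58 and 1.79 in PESFA (log2 difference -4.19, SE 0.41, adjusted p = 5.00e-10). WNT3A was at 28.7 and 33.5 TPM against 6.54 and 2.37, and WNT3, which is needed for the mouse streak to form, at 49.9 and 52.7 TPM against 8.26 and 10.95. All 4 fallen ligands were at over 10 TPM in both DK20FA libraries. WNT7B, WNT2 and WNT16 rose but remained low, the highest at 12.4 TPM. WNT16 lost its call in 10 of the 15 alternatives and WNT2 without PESFA replicate 2.

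Targets and inhibitors of the WNT pathway followed no single direction. Of 14 feedback and target genes 5 fell and 1 rose, with a median log2 difference of -0.42. Besides SP5, the fallen targets were DKK4, LEF1, RNF43 and, named to complete the count, NKD1. The 8 members that did not pass the test include AXIN2, a feedback gene of the pathway named for this reason. It was at 12.6 and 8.66 TPM in DK20FA and at 8.32 and 6.06 TPM in PESFA. DKK4, a secreted inhibitor, was at 44.9 and 62.9 TPM in DK20FA and was listed at 0 and at 8.62 TPM in the PESFA replicates, which thus differed widely (log2 difference -4.13, SE 0.60, adjusted p = 2.12e-06). LEF1, a nuclear mediator of the pathway, was low throughout, at 4.19 and 4.29 TPM against 0.95 and 0.23. FZD10, a WNT receptor among the largest decreases, was at 36.0 and 46.0 TPM in DK20FA and at 5.54 and 1.90 in PESFA.

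Of 9 secreted WNT antagonists 4 rose and 1, DKK4, fell, with a median log2 difference of 0.65, and 2 of the 9, DKK2 and SFRP4, passed the filter only through the PESFA or pre-treated libraries. SFRP1, which binds WNT proteins, was the most abundant of them, at 113 and 74.2 TPM in DK20FA and at 313 and 422 TPM in PESFA (log2 difference 1.98, SE 0.27, adjusted p = 8.04e-07). DKK1, which blocks the LRP co-receptors, was at 1.26 and 2.24 TPM against 9.20 and 11.8. DKK2 was at 0.25 and 0.11 TPM against 1.49 and 13.6, so most of its PESFA mean came from replicate 2, and SFRP5 was at 28.5 and 20.4 TPM against 59.5 and 61.2, with a call lost without DK20FA replicate 2 and without PESFA replicate 2. DKK1 and DKK4, both inhibitors, thus moved in opposite directions.

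**Figure D2:**
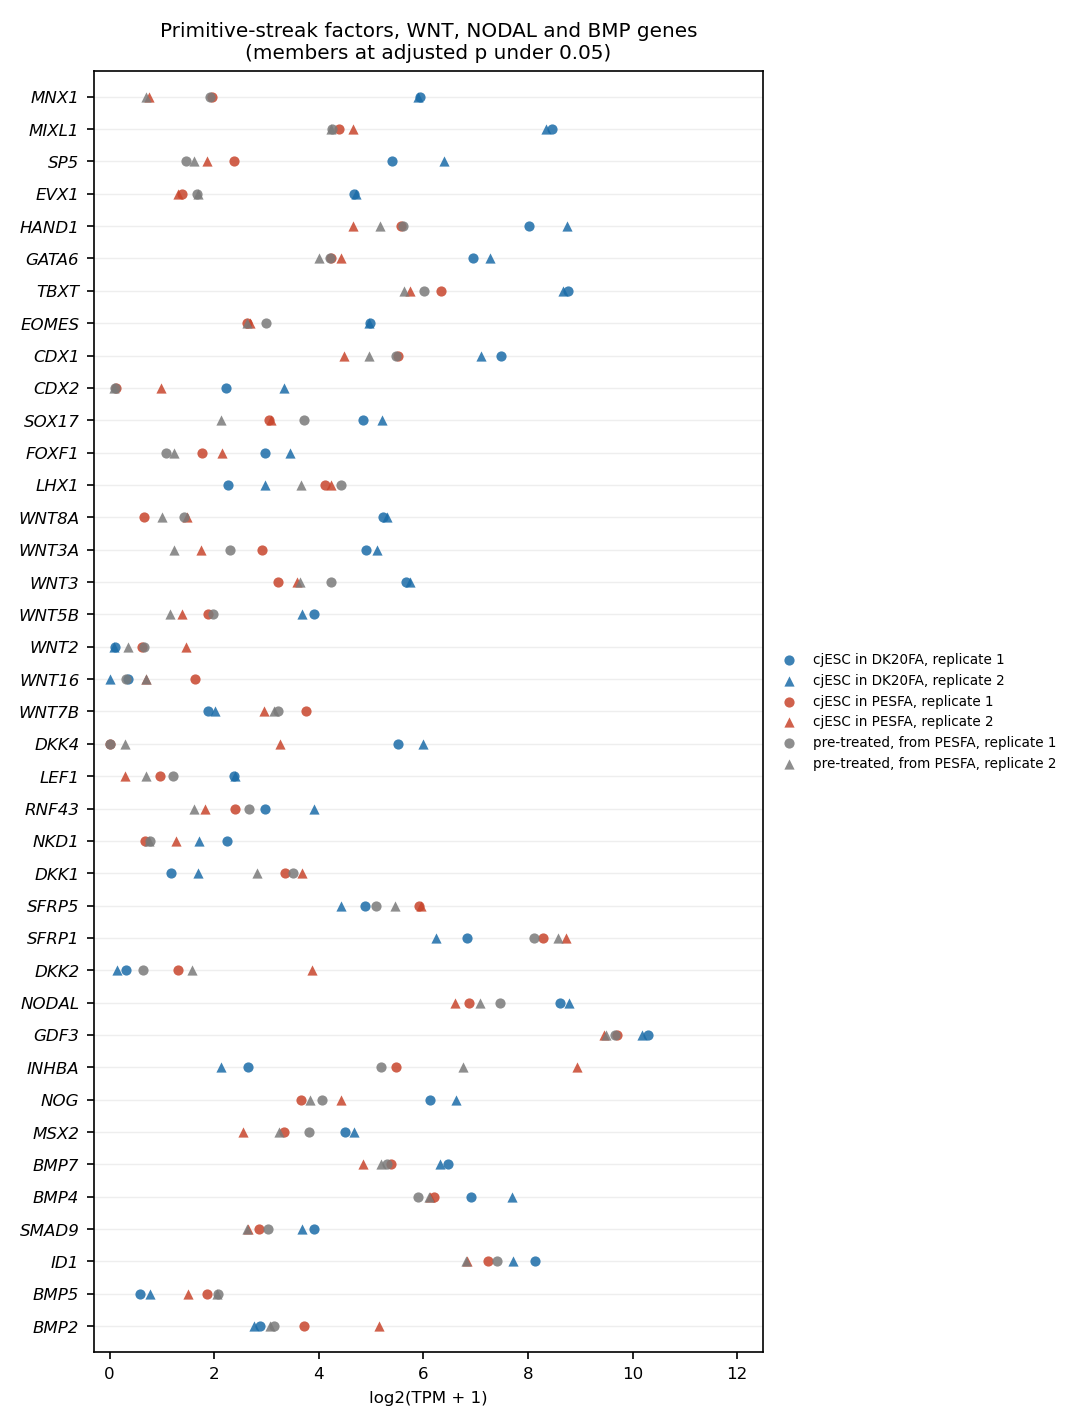
Each row is a gene of the primitive-streak, WNT, NODAL or BMP lists called at an adjusted p under 0.05, and each point its log2(TPM + 1) in 1 library of cjESCs in DK20FA (blue), cjESCs in PESFA (red) or pre-treated cells (grey). For MNX1, MIXL1, TBXT and WNT8A the PESFA and pre-treated points lie together, below the DK20FA points.

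NODAL, the ligand that maintains primed pluripotency and induces mesendoderm, was at 390 and 438 TPM in DK20FA and at 116 and 96.8 TPM in PESFA, a log2 difference of -1.96 (SE 0.40, adjusted p = 3.27e-04). Of 10 genes of the NODAL and activin axis, NODAL and GDF3 fell and INHBA rose. INHBA encodes the subunit of activin A, which both media also contain as a protein, and was at 5.27 and 3.38 TPM in DK20FA and at 43.7 and 490 TPM in PESFA (log2 difference 4.82, SE 0.57, adjusted p = 3.74e-08). The PESFA replicates of INHBA differed by more than those of any other higher DEG, so the direction was shared but its size was not well measured.

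Among BMP ligands and targets, 6 of 15 fell and 2 rose, with a median log2 difference of -0.40. NOG, a BMP antagonist, was at 69.0 and 97.7 TPM in DK20FA and at 11.6 and 20.4 TPM in PESFA, and was the only DEG of the list (log2 difference -2.34, SE 0.36). BMP4 and BMP7, the ligands, were at 119 and 205 TPM against 72.8 and 69.1, and at 88.3 and 78.6 TPM against 40.9 and 27.9. MSX2, a BMP target, was at 21.6 and 24.5 TPM against 9.14 and 4.83, and ID1, another target chosen for naming after its values were seen, fell less, by 0.88 on the log2 scale. BMP2 and BMP5 rose, BMP2 from 6.39 and 5.76 TPM to 12.24 and 34.4, and the call was lost without PESFA replicate 2 for BMP2 and without DK20FA replicate 1 or PESFA replicate 1 for BMP5.

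FGF ligands and ERK feedback genes did not share a direction, with 3 of 13 higher, 2 lower and a median of -0.02. Over all genes tested 11.5% were higher and 15.2% lower. ETV5, a transcription factor induced by ERK, was at 14.01 and 9.31 TPM in DK20FA and at 49.3 and 55.7 TPM in PESFA (log2 difference 2.10, SE 0.27). DUSP6 and SPRED1, which limit ERK signalling, were high in PESFA replicate 2 alone: SPRED1 was at 26.5 and 19.5 TPM in DK20FA and at 22.6 and 55.0 in PESFA, so the media overlapped. Without PESFA replicate 2 both calls were lost and the difference of SPRED1 was -0.01, and both were also lost without DK20FA replicate 2. FGF2 and IL17RD fell, but the call of FGF2 was lost without DK20FA replicate 1 and without PESFA replicate 2, and that of IL17RD without PESFA replicate 1.

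S100A6, a small calcium-binding protein abundant in fibroblasts and other proliferating cells, had the largest increase of all named DEGs. It was at 5.22 and 28.2 TPM in DK20FA and at 1309 and 1846 TPM in PESFA, a log2 difference of 6.85 (SE 0.72, adjusted p = 3.41e-09). The DK20FA replicates differed several-fold from each other, yet both lay far below either PESFA library. S100A4, also called fibroblast-specific protein, was at 3.70 and 4.09 TPM against 175 and 247 TPM (log2 difference 5.42, SE 0.63, adjusted p = 2.70e-08). The family as a whole did not move: of 21 S100 proteins and annexins tested, 5 rose and 2 fell, and the median was 0.10. S100A11, named after its values were seen, was at 1405 and 1655 TPM against 1434 and 1447, and S100A10, the partner of annexin A2, fell by 0.78 on the log2 scale, a call that was lost without DK20FA replicate 2. S100A4 also stands in the fibroblast list.

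Genes of fibrillar collagens and the interstitial matrix were the list with the largest median difference, 2.05 on the log2 scale. Of 30 members measured, 26 passed the filter, 3 of them, COL12A1, MFAP4 and POSTN, only through the PESFA or pre-treated libraries, and of the 26 tested 21 rose and 1 fell. COL3A1, the collagen III chain, was at 3.71 and 13.6 TPM in DK20FA and at 587 and 310 TPM in PESFA (log2 difference 5.69, SE 0.50, adjusted p = 6.25e-11). COL1A1, a collagen I chain, was at 41.8 and 83.6 TPM against 1598 and 878 TPM (4.30, SE 0.38, adjusted p = 5.07e-11). Both were higher in PESFA replicate 1 than in replicate 2, by less than 2-fold, and in neither did the media overlap.

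Proteins that organise collagen rose as well. BGN, a proteoglycan that binds collagen fibrils, was at 14.96 and 24.3 TPM in DK20FA and at 506 and 582 TPM in PESFA (log2 difference 4.76, SE 0.37). THBS1, thrombospondin, was at 30.2 and 31.2 TPM against 316 and 1390 TPM, with most of the signal in PESFA replicate 2. After their values were seen, LOX, the enzyme that cross-links collagen, FBN1, the main protein of microfibrils, and the collagen-binding proteoglycan LUM can be added: LOX was at 6.63 and 6.61 TPM against 123 and 48.4, FBN1 at 12.1 and 15.1 against 187 and 171, and LUM at 3.27 and 2.51 against 20.4 and 23.3. The members that did not follow were FBLN1, which fell from 999 and 1511 TPM to 604 and 567, and, named because they did not pass the test, SPARC, DCN, MFAP2 and MFAP5. SPARC was high in every library, at 1461 and 1822 TPM against 1691 and 1478. FN1, which most stromal and epithelial cells express, was listed at 0 in all 54 libraries, so a listed 0 may be a failed estimate, and for genes at 0 in a medium the TPM alone are described.

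Fibroblast identity genes rose in 10 of 15 and fell in 2, with a median of 1.29. Of these 15, PRRX1 passed the filter only through the PESFA or pre-treated libraries. PRRX1, a homeobox factor of limb and craniofacial mesenchyme, was at 0.20 and 0.24 TPM in DK20FA and at 13.3 and 19.5 TPM in PESFA (log2 difference 3.81, SE 0.20), and in the 48 other libraries it was at most 0.48 TPM and was listed at 0 in 27 of them. DDR2, a collagen receptor, was at 9.47 and 7.07 TPM against 68.0 and 89.9, and TWIST1, a mesenchymal factor, at 6.12 and 4.54 TPM against 21.6 and 43.4. The decreases were those of TIMP3 and TCF21, and without 1 replicate at most 1 of them remained. Of 12 fibroblast and feeder markers, a shorter list whose members all stand in the matrix or identity lists, 11 were in the table and tested. Of the 11, 0 fell and 9 rose, POSTN and PRRX1 among them, which passed the filter only through the PESFA or pre-treated libraries. The remaining pair consisted of DCN, at 16.4 and 35.3 TPM against 25.6 and 21.5, and PDGFRA, at 13.2 and 23.6 against 39.0 and 31.4. Their summed level was 243 and 286 TPM in DK20FA and 3026 and 1800 TPM in PESFA, while the pluripotency markers summed to 7233 and 6099 TPM and to 7230 and 6711 TPM. TPM of marmoset genes cannot show whether reads came from mouse feeders, and the part of feeder RNA, or of marmoset stromal cells within the sort, in these differences was not tested.

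Contractile and YAP-responsive genes rose in 9 of 14 and fell in 0, with a median of 1.23. ACTG2, a smooth muscle actin, was at 16 and 12.8 TPM in DK20FA and at 103 and 175 TPM in PESFA, and TPM2, a tropomyosin, at 78.5 and 67.7 TPM against 416 and 401 (log2 difference 2.47, SE 0.22). CCN1, a matricellular target of YAP, was at 158 and 140 TPM against 373 and 855, and ANKRD1 at 17.0 and 22.3 against 51.0 and 110, both highest in PESFA replicate 2. Basement membrane genes moved less, with 6 of 13 higher, 0 lower and a median of 0.44. NID1, which links laminin to collagen IV, was the leading member, at 26.3 and 25.1 TPM against 82.6 and 104. Among 5 genes of the epithelial-mesenchymal transition, VIM, TWIST1 and CDH2 rose and SNAI2 fell, the last with a call lost without DK20FA replicate 2, without PESFA replicate 1 and with a pseudocount of 0.1. VIM, the intermediate filament of mesenchyme, was at 375 and 729 TPM against 1212 and 1817, and CDH2, N-cadherin, at 6.12 and 4.48 TPM against 21.6 and 24.9.

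HOX genes, which record position along the body axis, were mostly higher in PESFA at low levels. Of 30 measured, 26 passed the filter, 2 of them, HOXC4 and HOXC8, only through the PESFA or pre-treated libraries, and of the 26 tested 17 rose and 1 fell. HOXC6 was listed at 0 in both DK20FA libraries and at 16.5 and 4.70 TPM in PESFA, HOXA5 was at 0.47 and 0.62 TPM against 15.7 and 9.29, HOXC10 was listed at 0 in both against 9.22 and 3.96, and HOXC8 was at 0 and 0.19 against 9.93 and 3.75. Each of these 4 was higher in PESFA replicate 1, as were COL3A1 and COL1A1. The number that rose was between 13 and 15 when each replicate was left out.

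**Figure D3:**
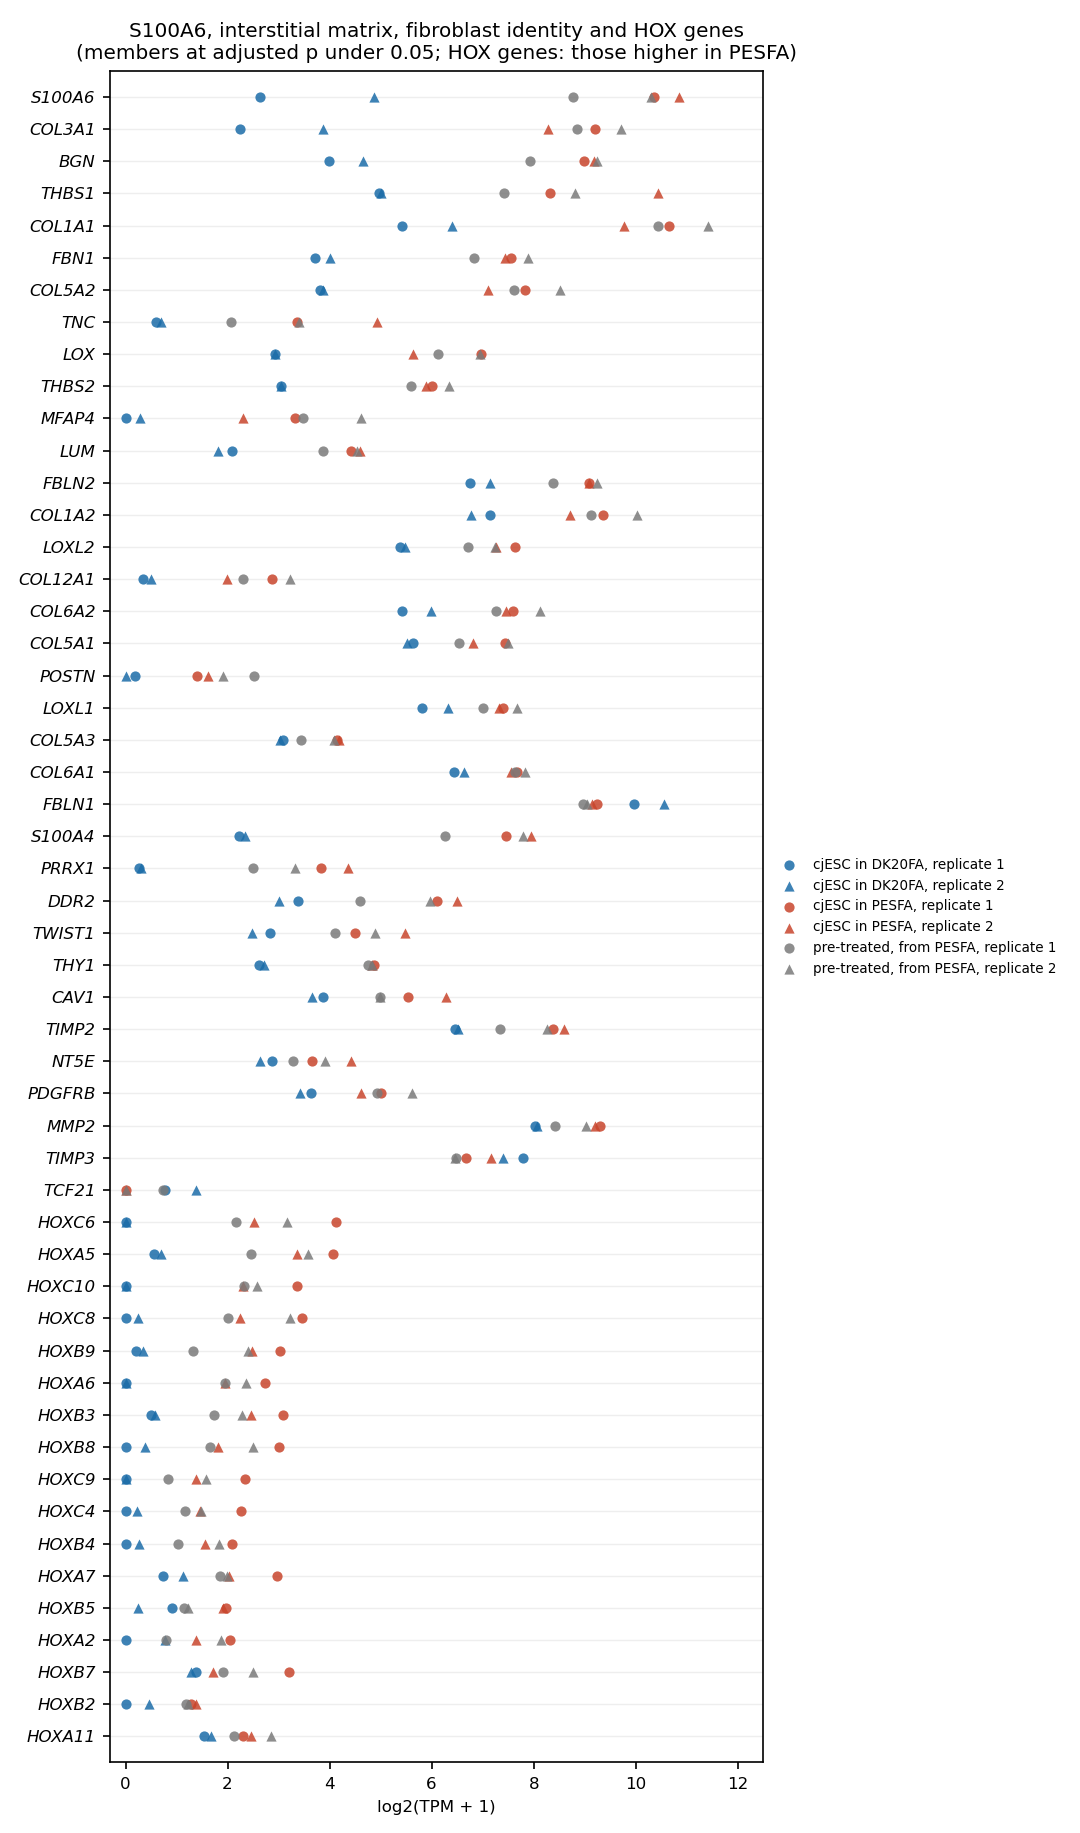
Each row is S100A6 or a gene of the interstitial matrix or fibroblast identity lists called at an adjusted p under 0.05, or a HOX gene called higher in PESFA, and each point its log2(TPM + 1) in 1 library of cjESCs in DK20FA (blue), cjESCs in PESFA (red) or pre-treated cells (grey). PESFA and pre-treated points lie above the DK20FA points in most rows, and FBLN1, TIMP3 and TCF21 lie the other way.

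DEGs listed at 0 in both libraries of a medium numbered 4, all with 0 in DK20FA. DPT, dermatopontin of the dermal matrix, was at 25.8 and 12.0 TPM in PESFA, ASPN, asporin of periodontal and cartilage matrix, at 21.3 and 4.36, HOXC6 as given above, and APLN, the peptide ligand of the apelin receptor, at 7.29 and 8.42. DPT, ASPN and APLN passed the filter only through the PESFA or pre-treated libraries. The receptor moved against its ligand: APLNR, a marker of early mesoderm, was at 46.9 and 117 TPM in DK20FA and at 6.36 and 5.92 TPM in PESFA (log2 difference -3.39, SE 0.34).

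Among the largest increases were also FGF7, AGTR2, PENK, IGFBP7 and NAB2. FGF7, keratinocyte growth factor, a product of mesenchyme that acts on epithelia, was at 0.16 and 0 TPM in DK20FA and at 34.4 and 48.2 TPM in PESFA (log2 difference 5.28, SE 0.26). AGTR2, an angiotensin receptor of fetal mesenchyme, was at 0 and 0.55 TPM against 39.3 and 64.3 (5.36, SE 0.25). In the 48 other libraries AGTR2 was listed at 0 in 47 and FGF7 was at most 0.70 TPM, so both genes passed the filter only through the PESFA or pre-treated libraries. PENK, the precursor of enkephalins, was at 2.09 and 0.92 TPM against 72.4 and 121. IGFBP7, a secreted binding protein for insulin-like growth factors, was at 6.79 and 16.7 TPM against 358 and 266, and NAB2, a co-repressor of EGR factors, at 0 and 0.16 against 26.4 and 25.2. In each of these genes both PESFA libraries lay far above both DK20FA libraries.

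RPL10L had the second largest named increase, at 0 and 0.77 TPM against 59.8 and 83.9 TPM, but it is a near-identical copy of the ribosomal protein gene RPL10, which was at 2498 and 2903 TPM against 2649 and 2581, so reads may have been divided between them and the value is uncertain. PABPC3 and HSPA6, DEGs named after their values were seen, also have close copies and are uncertain for the same reason.

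Genes of retinoic acid handling changed in both directions, with 3 of 11 higher and 2 lower, beside 11.5% and 15.2% over all genes tested. CRABP1, a cytoplasmic retinoic acid-binding protein, was at 28.4 and 56.3 TPM in DK20FA and at 758 and 1696 TPM in PESFA (log2 difference 4.79, SE 0.36, adjusted p = 1.63e-12). ALDH1A2, which makes retinoic acid in mesoderm, was at 0.26 and 1.13 TPM against 17.8 and 22.4. CRABP2, a related binding protein, fell from 290 and 769 TPM to 193 and 193, although the DK20FA replicates of CRABP2 differed by more than 2-fold and its call was lost without DK20FA replicate 2.

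Of 7 endothelial and blood markers tested, CDH5, TIE1 and RUNX1 rose and 0 fell. CDH5, VE-cadherin, was at 1.21 and 0.51 TPM in DK20FA and at 29.2 and 27.7 TPM in PESFA (log2 difference 4.01, SE 0.30, adjusted p = 1.63e-12). The defining markers did not rise together: PECAM1 was at 8.26 and 12.3 TPM against 9.67 and 6.31, KDR at 32.0 and 17.3 against 13.5 and 30.0, and TAL1, GATA1 and PTPRC were at or near 0 in all 4 libraries and did not pass the filter. The 10 markers in the table summed to 59.4 and 49.1 TPM in DK20FA and to 108 and 110 TPM in PESFA.

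Epithelial genes were lower where they changed. Of 13 tested, KRT8, KRT18, KRT19 and CD24 fell, 0 rose, and the median was -0.27. KRT18, a keratin of simple epithelia, was at 4913 and 4770 TPM in DK20FA and at 2609 and 1986 TPM in PESFA, KRT8 at 2763 and 2940 against 1368 and 1149, and KRT19 at 1671 and 2163 against 632 and 568. These are among the most abundant transcripts described here, and their differences, of 1.09 to 1.67 on the log2 scale, were small beside those of the collagens. Genes associated with the amnion did not move together, with 3 of 10 higher, led by IGFBP3 and GATA2, and 2 lower, HEY1 and GATA3. GATA3 was at 25.6 and 49.2 TPM against 8.33 and 7.41, and GATA2 at 7.84 and 6.69 TPM against 56.1 and 22.8. Of 7 definitive endoderm genes 2 fell, GATA6 and SOX17, the latter also a transgene in the DK20FA line. Of 11 neural genes 2 rose, ZIC1 and HESX1, at under 10 TPM. The shares over all genes tested were 15.2% lower and 11.5% higher. ZIC1 passed the filter only through the PESFA or pre-treated libraries, and the call of HESX1 was lost in 6 of the 15 alternatives.

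Among 8 germ cell specification genes 3 fell and 2 rose. SOX17 was at 27.6 and 36.2 TPM in DK20FA and at 7.22 and 7.49 TPM in PESFA (log2 difference -1.96, SE 0.29, adjusted p = 2.12e-06), and TFAP2C at 174 and 182 TPM against 107 and 96.0 (-0.80, SE 0.18). PRDM1 was at 17.6 and 10.5 TPM against 19.9 and 14.9 and did not pass the test. The DK20FA line carries transgenes of all 3 genes, and transgene and endogenous transcripts cannot be told apart in these values. DND1 fell, with a call lost without DK20FA replicate 2 and without PESFA replicate 2, and SOX15 and PDPN rose with adjusted p of 0.0386 and 0.0475, both lost in at least 9 of the 15 alternatives.

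Cell cycle, metabolic, stress and imprinted genes were counted beside 15.2% lower, 11.5% higher and a median of -0.08 over all genes tested. Several of the smaller counts lie near those shares. Of 19 cell cycle genes 7 fell and 0 rose with a median of -0.34, led by CCNB2, at 203 and 231 TPM against 132 and 117, but 3 were lower after median-ratio scaling and between 2 and 10 when a replicate was left out. Of 19 cholesterol synthesis genes 4 fell and 0 rose, between 0 and 6 when a replicate was left out. Of 15 hypoxia-response and glycolysis genes 4 rose and 1 fell with a median of -0.08, the same as that of all genes. VEGFA, the angiogenic growth factor, was the leading member, at 20.2 and 23.6 TPM against 55.8 and 95.3. Fatty acid synthesis genes fell in 2 of 8 and rose in 0, ATF4 genes fell in 4 of 12 and rose in 1, NRF2 genes moved in 1 of 7 each way, p53 targets rose in 3 of 9 and fell in 0, and imprinted genes rose in 2 of 10 and fell in 1. No metallothionein passed the filter.

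**Figure D4:**
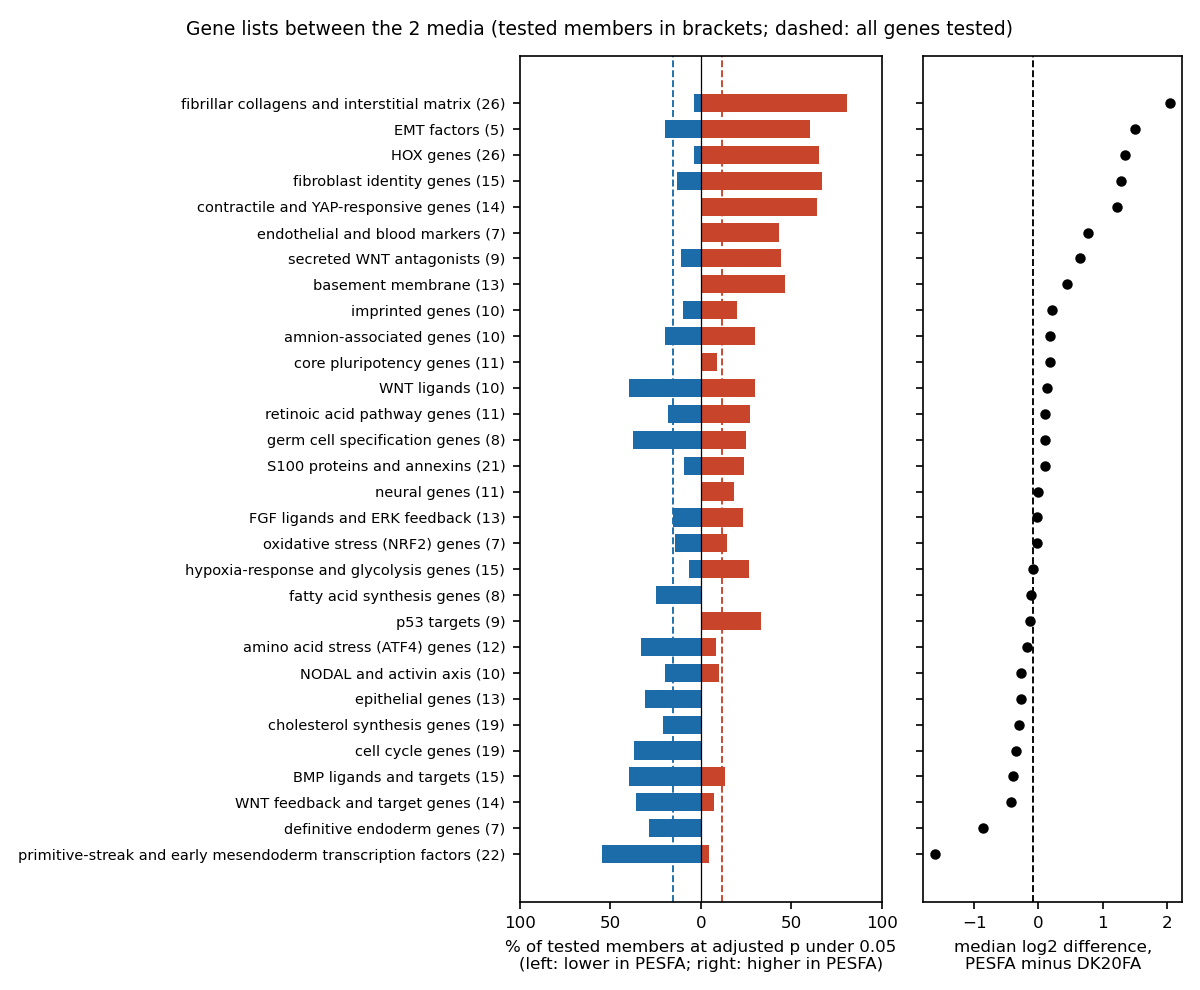
For each gene list, bars on the left give the percentage of tested members called lower (blue) and higher (red) in PESFA at an adjusted p under 0.05, and points on the right the median log2 difference, with dashed lines for all genes tested. The interstitial matrix list is at the top with 21 of 26 higher, and the primitive-streak factors are at the bottom with 12 of 22 lower.

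The pre-treated cells, which were made from PESFA cells, differed from them at 50 genes (0.447%) that were higher and 76 (0.679%) that were lower at an adjusted p under 0.05. These counts rest on single libraries: they were 194 and 240 without PESFA replicate 1 and 3 and 22 without PESFA replicate 2. Both comparisons use the PESFA libraries, so their values are given side by side without a test of likeness. After a day with IM12 and activin A, 0 of the 22 streak factors were called in either direction against PESFA. MIXL1 was at 18.0 and 17.9 TPM in pre-treated cells and TBXT at 63.8 and 48.8, below the DK20FA libraries. Stromal genes were high in these cells too: COL3A1 was at 459 and 835 TPM, S100A6 at 436 and 1262, and the 11 fibroblast markers summed to 2540 and 4801 TPM. CRABP1 was lower than in PESFA, at 97.7 and 406 TPM (log2 difference -2.50 against PESFA), as were VEGFA and VIM, and MFAP4, a microfibril protein, was higher.

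In the later conditions of the same line S100A6, COL3A1 and the fibroblast marker sum were far below their PESFA levels. At 12 h after the pre-treated cells were put into BLSE + IWR1, alone or with BMS, S100A6 was at 18.6 and 13.7 TPM and at 16.1 and 8.13 TPM in the respective replicates, and COL3A1 was at 7.21 and 5.71 and at 19.2 and 7.52 TPM. COL1A1 was at 118.5 and 73.57 TPM and at 165.25 and 118.55 TPM in the same libraries, beside 41.8 and 83.6 TPM in DK20FA. The 12 h libraries were not sorted for TRA-1-60. The 11 fibroblast markers summed to 164 to 307 TPM in the 4 libraries at 12 h and to 112 to 155 TPM in the 4 sorted libraries at 96 h. Over the 48 other libraries the sum had a median of 244 TPM. Its highest values, 1952 and 1268 TPM, belonged to the line with transgenes at 96 h in BLSE alone. In those libraries COL1A1 was at 9.34 and 10.4 TPM, COL3A1 at 10.7 and 9.92, and PRRX1 was listed at 0. Other markers than in PESFA thus made up most of the sum there. The summed TPM of the streak factors went the other way in the later conditions. It was 1653 and 1816 for DK20FA, 337 and 259 for PESFA and 324 and 241 for pre-treated cells. In the conditions derived from the pre-treated cells it was 466 to 897 at 12 h and 1746 to 3096 at 48 h. At 48 h HAND1 alone was at 1176 and 1186 TPM in BLSE + IWR1 and at 1517 and 1930 TPM with BMS. Other members differed there: SP5 and MNX1 stayed below both DK20FA libraries and EVX1 lay above them. MIXL1 was at 68.3 and 78.8 TPM in BLSE + IWR1 and at 361 and 16.4 TPM with BMS. S100A6 was at most 18.6 TPM and MIXL1 up to 361 TPM in the 48 other libraries.

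**Figure D5:**
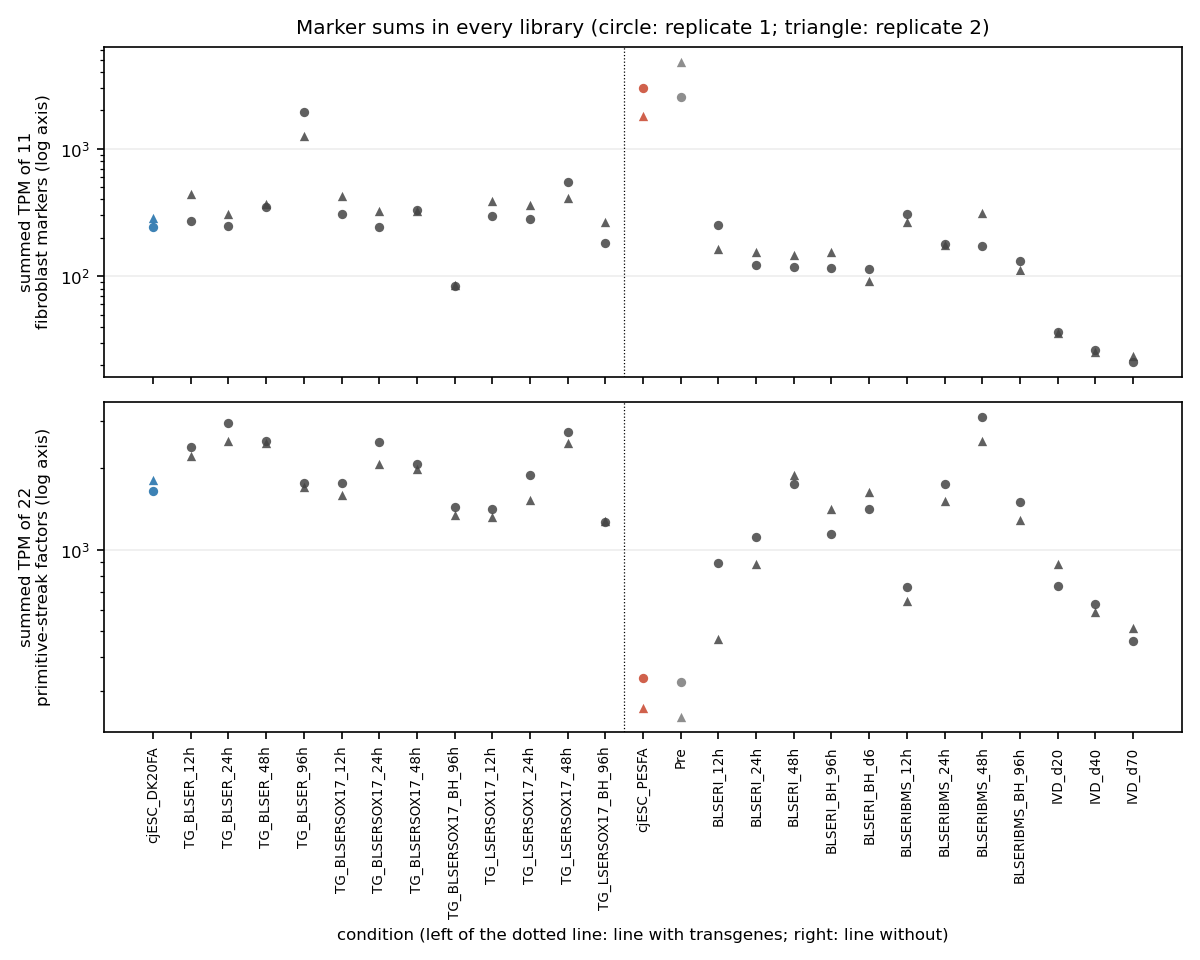
Points give, for each of the 54 libraries, the summed TPM of 11 fibroblast markers (top) and of 22 primitive-streak factors (bottom) on log axes, by condition. The PESFA and pre-treated libraries are high at the top and low at the bottom, while DK20FA lies within the range of the conditions derived from it in both.

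The 2 PESFA libraries did not carry the stromal genes in equal measure. Of the 162 higher DEGs, 96 (59.3%) were higher in replicate 2, compared with 39.6% of all genes tested. Of the 162, 26 were more than 2-fold higher in replicate 2, and 5 were more than 2-fold higher in replicate 1: ASPN, HOXC6, LOX, GATA2 and DPT. At the other end stood INHBA, PTGS2 and THBS1. PTGS2, the inducible cyclooxygenase, was at 11.7 and 73.4 TPM in PESFA and is named here for its spread after the values were seen. COL3A1, COL1A1, DPT and the leading HOX genes were thus higher in replicate 1, and S100A6, S100A4, PRRX1, TWIST1, BGN, LUM, INHBA, PTGS2 and THBS1 in replicate 2. Among pre-treated cells, replicate 2 was higher for 148 of the 162 genes (91.4%), compared with 37.7% of all genes tested, and the summed fibroblast markers were also higher there. The part of these library differences in the comparison of media was not tested, and the higher DEGs numbered 203 without PESFA replicate 1 and 164 without PESFA replicate 2.

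The higher DEGs were no more often neighbours on a chromosome than genes at large were. By gene order in the RefSeq annotation of another marmoset assembly, calJac240_pri, 4 of the higher DEGs (2.48%) lay beside another higher DEG, among them COL3A1 and COL5A2, compared with 2.83% of all genes tested that had a place.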

How the data were processed

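RNA of sorted cells was sequenced from 1 end and 1 strand after poly(A) selection. The authors used STAR for alignment to a marmoset genome, filtered on mapping quality, quantified genes with RSEM and deposited TPM for 14812 genes shared with humans. TPM hold no read totals, so depth is unknown and no count test was used; the authors' own DEGs came from edgeR. Here log2(TPM + 1) was fitted with limma 3.58.1 in R 4.3.3, 1 mean per condition over 54 libraries (27 conditions, 27 residual degrees of freedom) with an intensity trend. The filter kept the 11197 genes that reached a log2 value of 1.5 in any library, and tests were two-sided with Benjamini-Hochberg adjustment over these. The model was tested on simulated data. Named genes are MIXL1, MNX1, S100A6 and COL3A1, the 12 largest increases and decreases among DEGs with a symbol, up to 4 called members per list and direction, 6 pluripotency and germ cell genes, and DEGs listed at 0 in a medium. Some genes under this rule are not reported here. The members and lists were chosen with earlier results of these data known. Lists were counted and given no test of their own. No 2 libraries held identical values, and 0 columns lacked a sample. Where a DK20FA label reads DD-TFAP3C, it was taken as the same line.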

Additional observations from a re-analysis of the deposited data

How the results depend on the processing

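Depth is unknown, which leaves listed zeros and genes near 1 TPM least certain. The numbers of replicates do not pair the libraries: the deviations of same-numbered libraries in the 2 media correlated at 0.006 across genes. With the replicate number as a block over all libraries the DEGs were again 162 and 66. In the fits of only the 4 libraries compared, without the block 0 DEGs were called in either direction, 45 genes were higher and 14 lower, and 4 streak factors were lower, 6 matrix genes, 5 fibroblast identity genes, 1 fibroblast marker and 0 HOX genes higher, and with the replicate block all of these counts were 0, although 2550 genes had an unadjusted p under 0.05. In the 6 libraries sorted for TRA-1-60, 0 higher and 1 lower DEG, 330 higher and 289 lower genes and 9 higher HOX genes were called, and 0 genes in either direction between pre-treated cells and PESFA. Fewer residual degrees of freedom are part of these fits by construction. Leaving out 1 replicate each gave 162 to 203 higher and 50 to 88 lower DEGs, 829 to 1607 lower genes, and for pre-treated cells against PESFA 3 to 194 higher and 22 to 240 lower genes. That comparison also gave 24 higher genes with median-ratio scaling, 27 without an intensity trend and 30 lower genes with a pseudocount of 0.1; the cause was not tested. A pseudocount of 0.1 gave 192 higher and 80 lower DEGs, of which 154 and 60 were shared with the main result. Of 137 named genes, 132 kept 1 sign in all 15 alternatives, and SPRED1 reversed without PESFA replicate 2 (-0.00779 to 1.24 over the replicates left out). Calls were kept less often. Of the 133 named genes called, 61 lost the call in the 6 libraries sorted for TRA-1-60. In the fits of only the 4 libraries 114 lost it, and with the replicate block 133. Among the 61 were INHBA, DKK4, SOX17, BMP4, VIM and GATA2, for which no such loss is given above. Medians by chromosome and promoter motifs were not run, as no genome of the build used was at hand.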
